A study of Rattus norvegicus with 141 samples.

Results

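Mitochondria carry their own ribosome, and its proteins are encoded in the nucleus by genes named Mrpl (large subunit) and Mrps (small subunit). Of 30562 genes in the deposited tables, 73 bore a symbol of this form, that is Mrpl or Mrps followed by a number and at most one of the letters a to c. They cover 72 distinct symbols, because Mrps17 is listed under 2 gene identifiers. All 73 passed the filter on low counts in liver, stomach and duodenum, so none was left out of any comparison. The symbols place 46 members in the large subunit and 27 in the small subunit, counting Mrps18a and Mrps30 with the large subunit, where their proteins sit despite their names. Of the large-subunit members 26 have a bacterial counterpart and 20 are found only in mitochondria, and of the small-subunit members the numbers were 17 and 10. Mrps36 is not among them, and some subunits that have other names (Dap3, Ptcd3, Chchd1 and Gadd45gip1) were followed as a separate list.

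Polyadenylated RNA had been sequenced from liver, stomach and duodenum of adult wild-type (WT) Sprague-Dawley rats of both sexes, kept on standard chow. They received vehicle, 5 mg/kg microplastics (the low dose) or 50 mg/kg (the high dose). The design asks how exposure at each dose changed transcripts in each tissue. Each combination of tissue, sex and dose had 8 libraries, except 7 for duodenum female controls and 6 for high-dose female liver, which makes 46 liver, 48 stomach and 47 duodenum libraries. The labels give 3 batches, but neither the particles nor the animal behind each library, and p-values therefore measure the spread between libraries, which may be technical. Library totals in estimated counts were 6153367 to 23716939 for liver, 4947816 to 23940151 for stomach and 5470004 to 25503758 for duodenum. Summed hepatocyte markers were at least 89866 CPM (counts scaled to the library total) in every liver library and at most 143 in every stomach library, whereas duodenum libraries held 2754 to 18541. The list includes Apoa1, Apob and Cps1, which passed the filter on low counts in duodenum too. The duodenum sum therefore cannot tell liver tissue from expression in the gut itself. Parietal and chief cell markers were present in every stomach library, and enterocyte markers summed to between 3975 and 23686 CPM in duodenum. Markers of pancreatic acinar cells ranged from 0.438 to 54392 CPM among duodenum libraries.

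The mitochondrial ribosome translates only the few messenger RNAs made from mitochondrial DNA, which encode core subunits of the respiratory chain. Its proteins are made in the cytosol and imported, so the nuclear genes must supply every one of them. Tissues that rely on oxidative metabolism are known to hold much of this machinery, and the hepatocyte is a mitochondria-rich cell. Promoters of such genes often carry sites for the transcription factors NRF1, YY1 and the ETS family, to which GABP belongs.

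RefSeq promoter sequences (rat assembly GRCr8, which differs from the assembly of the deposited tables) were matched by symbol for 58 of the 72 member symbols, giving 60 promoters of 300 bases. The windows were searched on both strands for an ETS core (CCGGAAG), an NRF1 core (GCATGCGC) and a YY1 core (AAGATGGC). Such letters stood in 51.7% of the member promoters, against 22.9% of the promoters of genes tested in duodenum and 13.3% of all 33469 promoters in the table. The YY1 core was in 23.3% of member promoters and 4.86% of those of tested genes, the ETS core in 33.3% and 15.8%, and the NRF1 core in 8.33% and 4.49%. The 4 promoters below belong to members that were called higher both in high-dose duodenum and in high-dose male stomach, and they were picked to show each motif. Of the 15 members called in both, 7 had at least 1 of the motifs in this window and 8 had none. Capitals mark the motif letters or their reverse complement, and the windows lie at chr1:164351327-164351626 (minus strand, Mrpl48), chr14:9122857-9123156 (minus, Mrps18c), chr1:212779278-212779577 (minus, Mrpl49) and chr17:55260401-55260700 (plus, Mrpl32).
Mrpl48: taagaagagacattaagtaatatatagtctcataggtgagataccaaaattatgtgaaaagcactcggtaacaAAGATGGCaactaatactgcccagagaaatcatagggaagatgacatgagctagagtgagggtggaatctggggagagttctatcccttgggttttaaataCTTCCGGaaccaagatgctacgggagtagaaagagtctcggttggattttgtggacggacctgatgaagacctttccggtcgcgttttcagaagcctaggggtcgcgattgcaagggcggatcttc
Mrps18c: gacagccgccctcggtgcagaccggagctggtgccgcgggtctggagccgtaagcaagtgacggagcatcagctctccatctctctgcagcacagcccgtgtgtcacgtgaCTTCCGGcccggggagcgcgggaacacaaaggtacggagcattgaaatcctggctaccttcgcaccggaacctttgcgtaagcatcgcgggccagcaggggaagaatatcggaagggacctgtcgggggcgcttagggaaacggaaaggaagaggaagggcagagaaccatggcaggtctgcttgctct
Mrpl49: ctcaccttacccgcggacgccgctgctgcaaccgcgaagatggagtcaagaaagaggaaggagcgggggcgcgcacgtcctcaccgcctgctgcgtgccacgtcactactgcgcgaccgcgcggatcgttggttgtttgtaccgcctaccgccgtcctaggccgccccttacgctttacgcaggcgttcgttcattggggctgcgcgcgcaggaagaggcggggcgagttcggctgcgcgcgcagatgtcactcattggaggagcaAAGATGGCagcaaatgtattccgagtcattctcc
Mrpl32: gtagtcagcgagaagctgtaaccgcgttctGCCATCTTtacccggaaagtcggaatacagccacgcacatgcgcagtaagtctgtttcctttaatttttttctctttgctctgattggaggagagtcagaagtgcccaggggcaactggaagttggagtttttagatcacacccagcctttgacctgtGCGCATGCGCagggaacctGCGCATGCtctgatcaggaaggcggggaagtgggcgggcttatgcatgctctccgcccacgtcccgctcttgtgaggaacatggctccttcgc
Mrpl48 shows a YY1 core upstream of an ETS core, Mrps18c an ETS core alone, and Mrpl49 a YY1 core close to its start site. Mrpl32 has a YY1 core and 3 matches to the NRF1 core, 2 of which overlap. A match describes the letters only. Of the genes that encode such regulators, none of 10 (Nrf1, Gabpa, Gabpb1, Ppargc1a, Yy1 and others) passed the test in high-dose duodenum. Yy1 gave a log2 change of -0.19 ± 0.09 (SE, adjusted p = 0.111) and Nrf1 one of -0.09 ± 0.05 (SE, adjusted p = 0.232), by edgeR's quasi-likelihood test. In high-dose stomach, over both sexes, Esrrg from the same list was called lower by that test (-0.34 ± 0.10, SE, adjusted p = 0.0352).

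**Figure D1:**
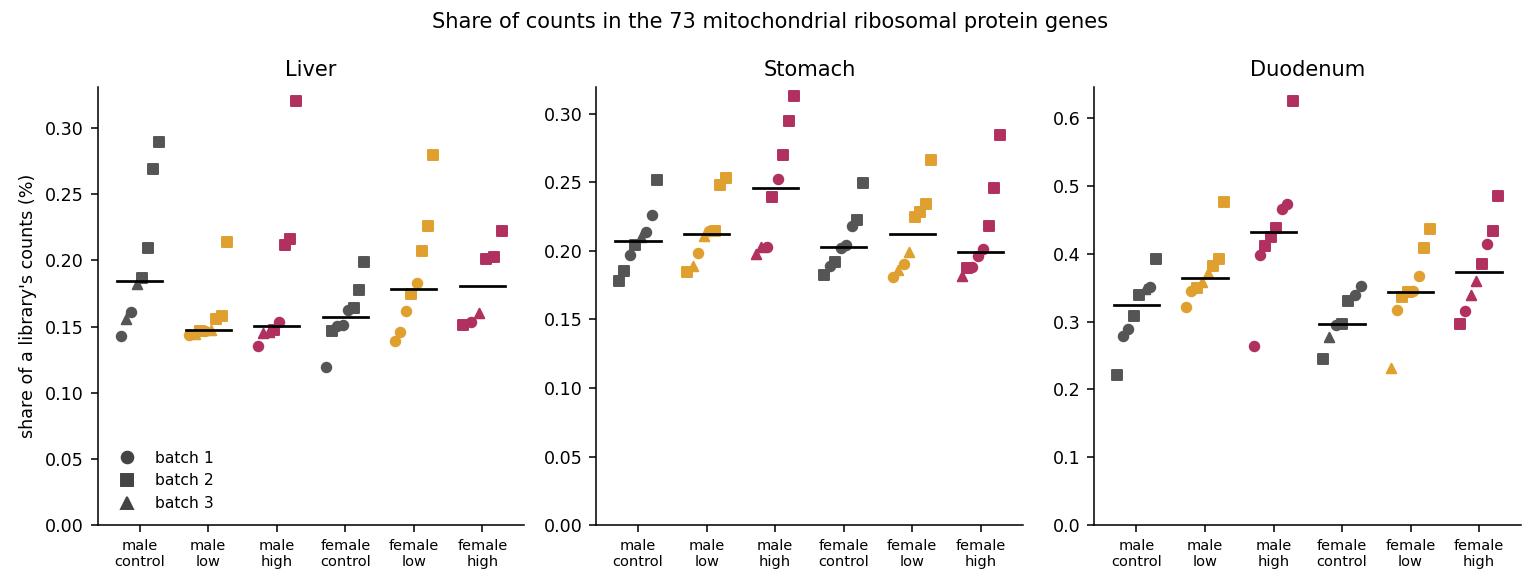
Share of each library's counts that fell in the 73 genes (y axis, percent), by sex and dose group (x axis) in each tissue; points are libraries, their shape gives the batch, and bars are group medians. In duodenum, 10 of 16 high-dose libraries lie above the highest control library, and the highest library (0.6251%) is a high-dose male.

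The high dose went with more mitochondrial ribosomal protein transcript in duodenum. The members took a median of 0.309% of counts in the 15 control libraries (lowest 0.221%, highest 0.392%), 0.353% in the 16 low-dose libraries (0.232% to 0.476%) and 0.413% in the 16 high-dose libraries (0.264% to 0.6251%). The groups overlapped, but 10 of 16 high-dose and 3 of 16 low-dose libraries lay above the highest control. In stomach the medians were 0.204%, 0.212% and 0.210% in control, low-dose and high-dose libraries, with 5 of 16 high-dose libraries above the highest control. Liver medians were 0.163%, 0.157% and 0.157%, and 1 high-dose library lay above the controls. In whole tissue, fewer cells of a type and less RNA per cell cannot be told apart.

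Gene by gene, 50 of the 73 members were higher in duodenum at 50 mg/kg than in controls and none was lower, at an adjusted p under 0.05 (edgeR's quasi-likelihood test with Benjamini-Hochberg adjustment over all genes tested). Of all genes tested 8.76% were called higher and 7.58% lower. All 73 members had a positive log2 change, with a median of 0.33, where the median of all genes was -0.02. Folds of the called members ran from 1.20 to 1.54, and none of the 73 had its lowest high-dose library above the control median (0 of 73).

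**Figure D2:**
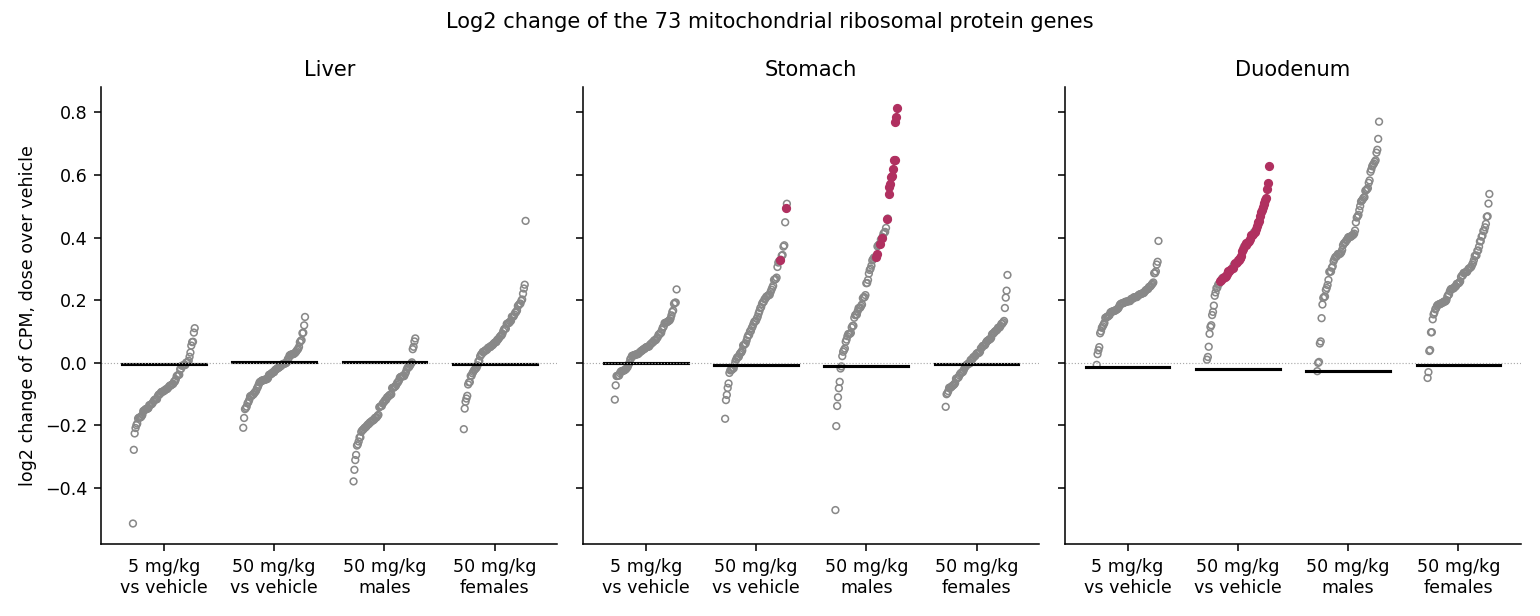
Log2 change of CPM from vehicle to dose (y axis) for each of the 73 genes, sorted within each comparison (x axis) and tissue; filled points passed an adjusted p under 0.05 and short bars mark the median of all genes. In duodenum the whole cloud lies at or above 0 at 50 mg/kg and 50 points are filled; in liver none is.

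In the large subunit 34 of 46 members rose, with a median log2 change of 0.34 over all 46. Mrpl48, a protein found only in the mitochondrial particle, stood at 26.6, 63.1 and 96.8 CPM (lowest, median and highest) in controls and at 49.8, 97.1 and 197 CPM at the high dose. Its log2 change of 0.63 ± 0.13 (SE, adjusted p = 0.0104) gave the largest fold of the called members, although the groups overlapped. Mrpl13, the counterpart of the bacterial protein L13, went from a median of 43.4 CPM in controls (15.6 to 62.4) to 61.5 CPM at the high dose (33.3 to 129.8). That was a log2 change of 0.58 ± 0.14 (SE, adjusted p = 0.0119). Mrpl49 rose by 0.51 ± 0.12 (SE, adjusted p = 0.0112), Mrpl46 by 0.45 ± 0.12 (SE, adjusted p = 0.013) and Mrpl51 by 0.36 ± 0.09 (SE, adjusted p = 0.0123), all on the log2 scale and all of them mitochondria-only proteins. Mrpl58, a release factor-like peptidyl-tRNA hydrolase built into the large subunit, rose by 0.29 ± 0.10 (SE, adjusted p = 0.0406).

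The stalk proteins were less clear. Mrpl12, which in human cells also binds the mitochondrial RNA polymerase, was at 77.7, 200.2 and 253 CPM in controls and at 146, 230.2 and 416 CPM at the high dose, a log2 change of 0.30 ± 0.12 that missed the threshold (SE, adjusted p = 0.0756). Mrpl10, on which the stalk is anchored, had the smallest change of all members, 0.01 ± 0.07 (SE, adjusted p = 0.936), with control libraries at 22.1 to 46.1 CPM and high-dose libraries at 27.3 to 39.02 CPM. Mrpl4 (0.05 ± 0.08, SE, adjusted p = 0.696) and Mrpl52 (0.09 ± 0.06, SE, adjusted p = 0.255) also had small log2 changes.

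In the small subunit 16 of 27 members rose, with a median log2 change of 0.32 over all 27. Mrps10, the counterpart of bacterial S10, had the smallest p of all members: its controls were at 10.4, 18.5 and 28.7 CPM and its high-dose libraries at 16.2, 25.3 and 45.2 CPM, a log2 change of 0.53 ± 0.11 (SE, adjusted p = 0.0104). Mrps5, whose bacterial counterpart lies where messenger RNA enters the ribosome, went from 39.98, 62.7 and 72.3 CPM to 57.8, 74.9 and 107 CPM. Its change was smaller, 0.32 ± 0.07 on the log2 scale (SE, adjusted p = 0.0104), but so was its spread. Mrps33 (0.56 ± 0.14, SE, adjusted p = 0.0121), Mrps28 (0.51 ± 0.13, SE, adjusted p = 0.012), Mrps11 (0.45 ± 0.11, SE, adjusted p = 0.0123) and Mrps26 (0.39 ± 0.10, SE, adjusted p = 0.0121) rose as well. Mrps12, whose bacterial counterpart helps to monitor decoding, had a log2 change of 0.21 ± 0.10 (SE, adjusted p = 0.114), and Mrps2 had one of 0.02 ± 0.08 (SE, adjusted p = 0.898).

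The 3 Mrps18 paralogs, which descend from 1 bacterial protein and occupy separate places in the particle, did not all pass. Mrps18c rose from 21.97, 31.3 and 54.1 CPM in controls to 22.1, 46.4 and 114 CPM, a log2 change of 0.52 ± 0.12 (SE, adjusted p = 0.0104). Mrps18a, which sits in the large subunit, went from 25.6, 37.7 and 45.2 CPM to 32.7, 44.8 and 70.4 CPM (0.26 ± 0.09, SE, adjusted p = 0.0453). Mrps18b stood at 20.6, 38.8 and 57.2 CPM in controls and 30.6, 42.9 and 56.0 CPM at the high dose, with a log2 change of 0.18 ± 0.09 (SE, adjusted p = 0.151). Differences between the paralogs were not tested. The 2 Mrps17 entries may share reads, and their values are uncertain: the abundant entry changed by 0.33 ± 0.11 (SE, adjusted p = 0.0374), and the scarce entry, at a median of 1.02 CPM in controls, by 0.12 ± 0.31 (SE, adjusted p = 0.828). Mrpl42 has genes named as its copies outside the symbol rule, and its log2 change of 0.37 ± 0.16 (SE, adjusted p = 0.101) may hold their reads.

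**Figure D3:**
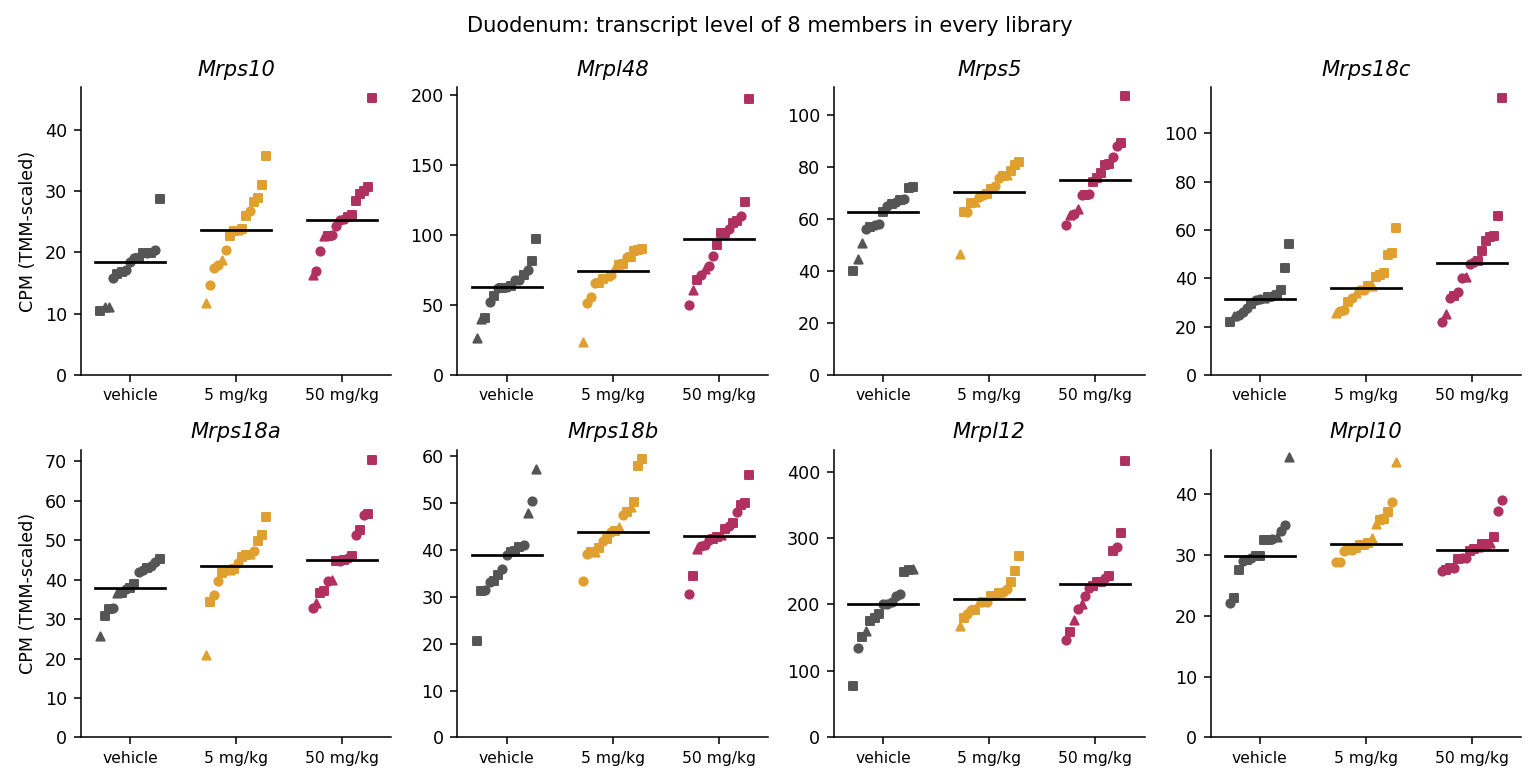
Transcript level (y axis, CPM scaled by TMM within duodenum) of 8 members in every duodenum library, by dose (x axis); bars are medians and shapes give the batch. Mrps10, Mrpl48, Mrps5 and Mrps18c passed the test at 50 mg/kg, as did Mrps18a; Mrps18b, Mrpl12 and Mrpl10 did not.

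At 5 mg/kg no member was called in duodenum, and neither was any of the 15189 genes tested (0%). By edgeR 23 members (31.5%, against 14% of all genes) had an unadjusted p under 0.05, and 72 of 73 log2 changes were positive, with a median of 0.20. Mrps10 again had the smallest p among members, with low-dose libraries at 11.8, 23.6 and 35.7 CPM and a log2 change of 0.39 ± 0.11 (SE, adjusted p = 0.199). The low-dose and high-dose comparisons share their control libraries, so their like directions are not independent. High against low dose likewise gave no called member, with 16 (21.9%, against 12% of all genes) at an unadjusted p under 0.05 and a median log2 change of 0.15. Within either sex no gene of the table was called (0%). The median log2 change of the members at the high dose was 0.40 in males, with 56 of them (76.7%, against 24% of all genes) at an unadjusted p under 0.05. In females it was 0.25, with 20 (27.4%, against 13.5%). The sex difference in the dose effect had 0 called members and 1 with an unadjusted p under 0.05 (1.37%, against 1.99% of all genes). With DESeq2 in place of edgeR, 24 members were called in high-dose males, and the other counts of called members here stayed at 0. The share of all genes that DESeq2 called in high-dose males is not given here.

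The rise in duodenum moved with other measures. The share of counts in cytosolic ribosomal protein genes was 2.66% to 5.12% in controls (median 3.68%) and 2.93% to 9.61% at the high dose (median 5.62%), and 77 of 117 such genes were called higher. With that share as a covariate no member was called, nor was any gene of the whole table, and the median log2 change of the members was -0.03. Across the 47 libraries the member share and the cytosolic share had Pearson's r = 0.968 and Spearman's rho = 0.955 (permutation p = 1e-05 each, the smallest that 100000 permutations can give, and 1.75e-05 and 2.33e-05 after adjustment over 7 relations). Without the 2 libraries farthest from the median cytosolic share r was 0.954. Within batches 1, 2 and 3 it was 0.971 (n = 17), 0.969 (n = 23) and 0.924 (n = 7 libraries). Both shares come from the same counts, and the part of general ribosomal transcript in the member result cannot be told apart from it here.

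**Figure D4:**
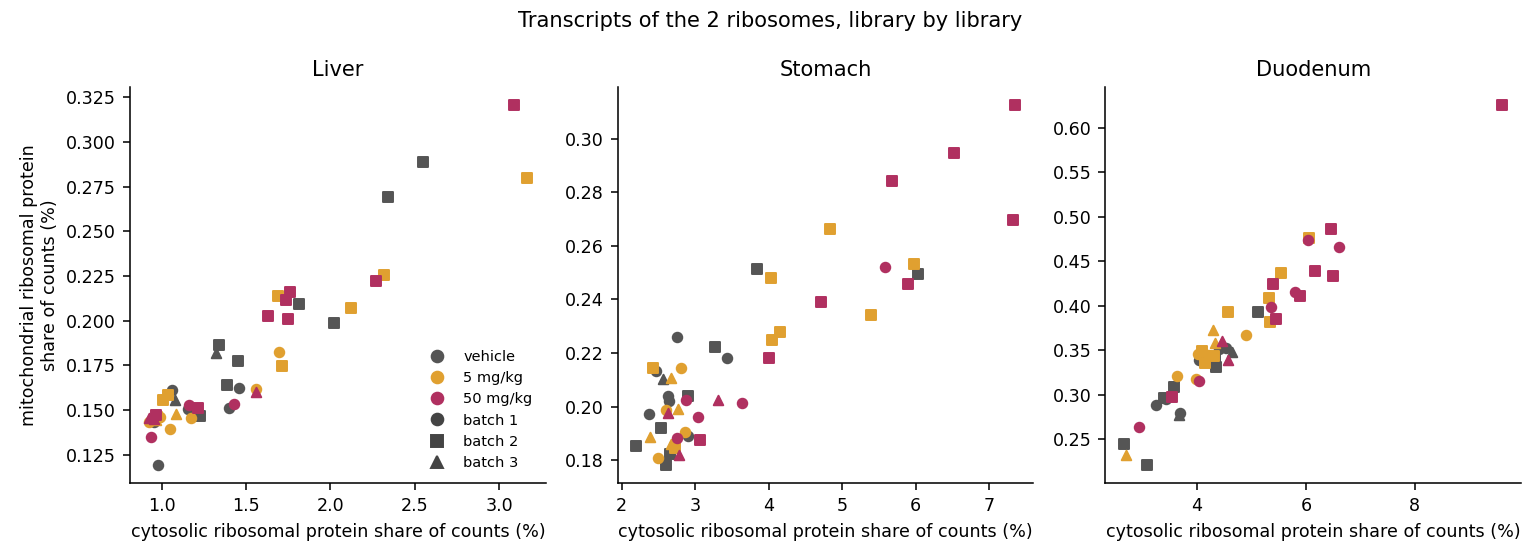
Share of counts in the 73 genes (y axis, percent) against the share in cytosolic ribosomal protein genes (x axis, percent), 1 point per library, colour for dose and shape for batch. The points rise together in each tissue, and the high-dose male duodenum library at 9.61% and 0.6251% lies at the far end.

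Enterocyte markers were lower in high-dose duodenum, with all 11 log2 changes negative and 1 called (Cdhr5, a brush border cadherin, -0.71 ± 0.21, SE, adjusted p = 0.0231). Their summed level was 5262 to 23686 CPM in controls and 3975 to 15496 CPM at the high dose, and none of the 11 was absent. With the enterocyte marker mean as a covariate, 51 members were called, and the share of all genes called in that fit is not given here. Across the 47 libraries the member share and the summed enterocyte level had r = -0.310 (permutation p = 0.0345) and rho = -0.245 (permutation p = 0.0969). Within batches 1, 2 and 3 r was -0.539, -0.198 and -0.646. By dose group it was -0.109 in controls, -0.527 in low-dose and -0.155 in high-dose libraries. Of 12 cell cycle genes 6 rose, among them Birc5 (0.47 ± 0.10, SE, adjusted p = 0.0104) and Cdk1 (0.36 ± 0.09, SE, adjusted p = 0.0109). Their summed level was 614 to 1292 CPM in controls and 787 to 1383 CPM at the high dose, and its part in the member result was not tested. Single genes of other marker lists were called as well, with Lyz2 (0.75), the plasma cell gene Mzb1 (0.51) and the T cell gene Cd3g (0.80) higher and Muc2 (-0.58), Cidec (-0.71) and Apob (-1.18, from the hepatocyte list) lower on the log2 scale. Their lists were mixed. Cd3d (0.51) went with Cd3g, but Nkg7 (-0.23), Gzma (-0.30), Cd4 (-0.09) and Cd8a (-0.07) did not. Fcgbp (-0.18) went with Muc2, but Tff3 (0.31) and Spink4 (0.25) did not, and none of these was called. Summed B and plasma cell markers were at 502 to 1554 CPM in controls and 799.8 to 1594 CPM at the high dose, and summed goblet and Paneth markers at 10509 to 23411 and 9354 to 18292 CPM.

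The duodenum result was uneven across batches and libraries. In batch 1 alone (6 control and 6 high-dose libraries) no member was called, 1 had an unadjusted p under 0.05, 71 of 73 changes were positive and the median was 0.18. In batch 2 alone (7 and 8 libraries) 36 were called and the median was 0.54, and batch 3 held only 2 libraries of each group. The share of all genes called in batch 2 alone is not given here, so the 36 cannot be set against genes at large. In 70 members the change was positive in both batches. Leaving out single libraries gave 29 calls without female control replicate 1, 30 without male high-dose replicate 5 and up to 64 without male high-dose replicate 6. The share of all genes called moved as well, at 7.49%, 8.79% and 24.4% in these fits and 16.3% with all libraries. In the first batch male high-dose replicate 6 had only 1 of 73 members above its control median, and in the second male high-dose replicate 5 had 69. Tissue was homogenised treatment by treatment, with a deeper clean between treatments, so the order of handling and the dose cannot be told apart.

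Other genes of mitochondrial gene expression were higher in high-dose duodenum too. The lists were put together with earlier results of these data known. All 4 mitochondrial ribosome subunits with other names rose: Chchd1 (0.53 ± 0.15, SE, adjusted p = 0.0162), Ptcd3 (0.33 ± 0.09, SE, adjusted p = 0.0182), Gadd45gip1 (0.30 ± 0.10, SE, adjusted p = 0.0412) and Dap3 (0.20 ± 0.07, SE, adjusted p = 0.0496). Of 31 assembly factors 9 rose, led by the GTPases Mtg1 (0.48 ± 0.09, SE, adjusted p = 0.0104) and Gtpbp10 (0.45 ± 0.10, SE, adjusted p = 0.0104). Of 19 genes for keeping and transcribing mitochondrial DNA or processing its RNA 10 rose, among them Ssbp1, which coats single-stranded mitochondrial DNA (0.43 ± 0.10, SE, adjusted p = 0.0104), and Tfam, its packaging factor (0.46 ± 0.12, SE, adjusted p = 0.0123). Translation factors (6 of 20 higher) and mitochondrial tRNA synthetases (5 of 20) had smaller shares called than the 68.5% of members, a difference that was not tested, and 28 of 81 nuclear genes of the respiratory chain were called higher. None of these lists had a called lower gene. The 13 protein genes of mitochondrial DNA, which this ribosome translates, had 0 calls and a median log2 change of -0.12. Their share of counts was 6.94% to 15.3% in controls and 5.52% to 12.5% at the high dose.

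Across the 47 duodenum libraries the member share and the share of mitochondrial DNA transcripts had r = -0.401 (permutation p = 0.00536, adjusted p = 0.00625) and rho = -0.322 (permutation p = 0.0275, adjusted p = 0.0321). Without the 2 libraries farthest from the median, r was -0.214, so the relation rested in part on them, and it was 0.584 in batch 3 (n = 7 libraries) against -0.412 and -0.591 in batches 1 and 2. By dose group r was 0.00114 in controls, 0.028 in low-dose and -0.890 in high-dose libraries, so the negative relation was seen in the high-dose group. In liver the relation was r = -0.619 (rho = -0.547, adjusted permutation p = 4.2e-05 and 0.00014), negative within each batch (-0.418, -0.824 and -0.297). In stomach it was positive, r = 0.639 (rho = 0.620, adjusted permutation p = 1.75e-05 and 3.5e-05), but r was 0.012 within batch 1 and 0.571 and 0.741 in batches 2 and 3.

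In stomach the high dose gave 2 called members, both higher, where 2.65% of all genes were called higher and 1.84% lower. Mrpl14, the counterpart of bacterial L14 at the contact between the subunits, was at 15.5, 17.1 and 27.6 CPM in controls and 14.8, 19.6 and 34.8 CPM at the high dose, a log2 change of 0.33 ± 0.09 (SE, adjusted p = 0.0332). Mrps18c was at 18.7, 22.9 and 52.4 CPM and 17.6, 31.9 and 73.3 CPM, a log2 change of 0.49 ± 0.14 (SE, adjusted p = 0.0353). The groups overlapped for both. The median over the 73 members was 0.13 and 61 were positive. Both calls were lost within batch 1 alone and batch 2 alone, without the batch term and with the cytosolic ribosomal share as a covariate. The count was 4 with DESeq2, 8 without batch 3 and 11 with the replicate number as a block, and the shares of all genes called there are not given. Some markers of cell types were called in the same comparison: the parietal genes Esrrg (-0.34) and Kcnj15 (-0.34) and the cell cycle gene Top2a (-0.36) were lower, and Lyz2 (0.51) and the squamous gene Mt4 (0.72) were higher on the log2 scale. In the goblet and Paneth list, Zg16 (2.49), Spink4 (0.38) and Clca1 (0.13) went with Lyz2, but Muc2 (-0.58) and Fcgbp (-0.28) did not. In the squamous list, Krtdap (0.60), Ivl (0.33), Sprr1a (0.31) and Krt5 (0.17) went with Mt4, but Krt17 (-0.53) did not. None of these others was called. Summed parietal markers were at 7184 to 14233 CPM in controls and 5753 to 10825 CPM at the high dose, and their part in the member result was not tested. At 5 mg/kg no member and no gene was called (0%), and 1 member had an unadjusted p under 0.05. High against low dose called 0 members, where 0.614% of all genes were higher and 0.0925% lower. There 9 members had an unadjusted p under 0.05 by edgeR (12.3%, below the 15.5% of all genes), and DESeq2 called 1.

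In male stomach libraries 16 members rose at 50 mg/kg and none fell, against 4.95% of all genes called higher and 2.11% lower (7.06% in either direction), and the median log2 change of the 73 was 0.25. Mrps18c was at 18.7, 22.4 and 40.4 CPM in male controls and at 20.3, 50.0 and 73.3 CPM in high-dose males, a log2 change of 0.81 ± 0.20 (SE, adjusted p = 0.0106). Mrpl14 went from 15.5, 16.4 and 20.3 CPM to 15.9, 26.98 and 34.8 CPM (0.54 ± 0.13, SE, adjusted p = 0.00971), and 11 of the 16 called members belong to the large subunit. Mrpl54, a mitochondria-only protein, changed by 0.77 ± 0.22 (SE, adjusted p = 0.0321), Mrpl18, which in bacteria binds the 5S RNA, by 0.65 ± 0.17 (SE, adjusted p = 0.0202), and Mrps6 by 0.65 ± 0.19 (SE, adjusted p = 0.0356). The others were Mrps33, Mrpl48, Mrpl30, Mrpl20, the abundant Mrps17 entry, Mrpl32, Mrpl49, Mrpl33, Mrpl55, Mrpl1 and Mrps11, with adjusted p from 0.0245 to 0.0496.

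In female stomach no gene of the table was called (0%), the members included. None of the members and 5.81% of all genes had an unadjusted p under 0.05, and the median log2 change of the members was 0.03. In females Mrps18c changed by 0.18 ± 0.20 (SE, adjusted p = 0.904) and Mrpl14 by 0.12 ± 0.13 (SE, adjusted p = 0.901). The test of the sex difference itself called no member and no other gene (0%), and 14 members (19.2%, against 7.84% of all genes) had an unadjusted p under 0.05. For Mrps18c the difference, females minus males, was -0.64 ± 0.28 (SE, adjusted p = 0.629).

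Cytosolic ribosomal protein genes rose in male stomach as well, 97 of 115 with a median log2 change of 0.87, and with their share as a covariate no member was called and the member median was -0.12. In batch 1 alone (3 control and 2 high-dose males) and in batch 2 alone (4 and 4) no member was called. The medians were 0.09 and 0.46, and 51 members were positive in both. The count of called members fell to 2 without male control replicate 4, male high-dose replicate 2 or male high-dose replicate 4. Of all genes, 1.81%, 2.16% and 1.88% were called in these fits, against 7.06% with all libraries. The member count was 3 without male high-dose replicate 3 (2.35% of all genes), 4 without male control replicate 2 (3.34%) and 5 without male high-dose replicate 6 (3.59%). It was 6 without male control replicate 6 (7.16%), 9 without male control replicate 7 (5.15%) and 26 without male high-dose replicate 7 (10.7%). Cell cycle genes had 1 call, lower, of 12, and 3 of 8 macrophage markers were higher; their part in the result was not tested.

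Of the 16 members called in male stomach, 15 were among the 50 called in high-dose duodenum, which is 93.8% of the first and 30% of the second. Over all genes tested in both tissues, 57.2% of those called higher in male stomach were also called higher in duodenum, and 31.5% the other way round. The tissues may come from the same animals, so these are not independent. The difference of the high-dose effect between stomach and duodenum, over both sexes, was called for 1 member (1.37%), beside 0.23% of the 16992 genes tested. Mrps5 had a log2 change of -0.12 in stomach and 0.32 in duodenum, a difference of -0.43 ± 0.09 (SE, adjusted p = 0.0227). Between liver and duodenum the difference was called for 0 members and 0.0471% of all genes. It had an unadjusted p under 0.05 for 43 members (58.9%, against 15.5% of all genes), with a median of -0.30.

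In liver no member was called at either dose, and no gene of the 13130 tested was called (0%). At 50 mg/kg the median log2 change of the members was -0.03, 1 member had an unadjusted p under 0.05 and the changes ran from -0.21 to 0.15. Mrpl4 had the smallest p, with controls at 24.2, 28.1 and 39.9 CPM and high-dose libraries at 18.6, 25.1 and 33.9 CPM (-0.21 ± 0.08, SE, adjusted p = 1). At 5 mg/kg the median was -0.09 with 0 members at an unadjusted p under 0.05. DESeq2 called 0 members in each of these comparisons too.

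Liver differed by sex. Among controls 12 members were lower in females and none higher, which is 16.4% of members. Of all genes 12.3% were called lower and 10.5% higher, 22.8% in either direction, so members were not called more often than genes at large. All but 1 of the 73 log2 changes were negative, with a median of -0.34 where that of all genes was 0.00. Mrpl15, the counterpart of bacterial L15, was at 89.2, 167 and 337 CPM in males and at 57.6, 93.9 and 122 CPM in females, a log2 change of -0.88 ± 0.21 (SE, adjusted p = 0.00157). Mrpl16, which in bacteria helps to shape the peptidyl transferase centre, was at 26.8, 35.5 and 68.0 CPM in males and 22.3, 24.6 and 35.8 CPM in females (-0.63 ± 0.15, SE, adjusted p = 0.00124). Mrps30 fell by 0.52 ± 0.12 (SE, adjusted p = 0.00142) and Mrpl12 by 0.62 ± 0.19 (SE, adjusted p = 0.0139), on the log2 scale. The other called members were Mrpl51, Mrpl32, Mrpl38, Mrpl49, Mrps14, Mrps11, Mrps7 and Mrpl33, with adjusted p from 0.0101 to 0.0358, and male and female ranges overlapped in each of the 4 described.

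The liver sex difference also varied by batch. In batch 1 alone (2 male and 4 female controls) no member was called and the median was -0.03, with 5 at an unadjusted p under 0.05. In batch 2 alone (4 and 4) 6 were called and the median was -0.55, and batch 3 held male controls only. Of the 12 called members none changed sign in either batch, and Mrpl38 kept its size (-0.30 in each). Leaving out 1 library gave between 4 calls (without male control replicate 7) and 21 (without male control replicate 4), with 5 without male control replicate 5, 6 without female control replicate 7 and 7 without female control replicate 3 or 5. Of all genes, 17% were called in the fit with 4 and 23.8% in the fit with 21. Cell cycle genes were lower in females for 10 of 12 members (median log2 change -1.36), and 5 of 9 hepatocyte markers were lower; their part was not tested. With the cytosolic ribosomal share as a covariate 30 members were called lower, and the share of all genes called in that fit is not given here. In stomach and duodenum controls no member differed between the sexes, against 0.172% and 0.079% of all genes in either direction (0.0793% higher and 0.0925% lower in stomach, 0.0198% and 0.0593% in duodenum), and 1 member in each tissue had an unadjusted p under 0.05.

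**Figure D5:**
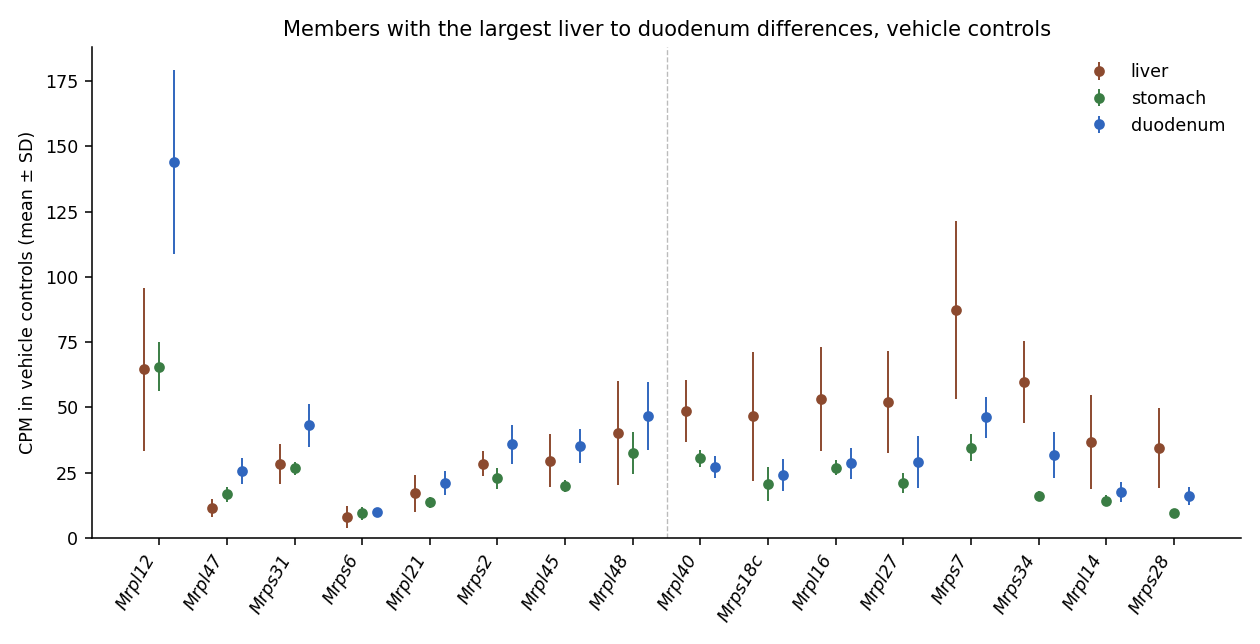
Level (y axis, CPM, mean ± SD of vehicle controls, n = 16 liver, 16 stomach and 15 duodenum libraries, scaled jointly) of the 8 called members with the largest deficit in liver against duodenum (left of the dashed line) and the 8 with the largest excess (right). Mrpl12 stands at 144 CPM in duodenum and about 65 CPM in both other tissues; Mrps34 and Mrps28 are highest in liver.

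Between tissues, the share called in either direction was 65.8% of members and 82% of all genes for liver against duodenum, 90.4% and 82.8% for liver against stomach, and 79.5% and 76.9% for stomach against duodenum. In vehicle controls 39 members were higher and 9 lower in liver than in duodenum, where 36.7% of all genes were called higher and 45.2% lower. Against stomach 65 were higher in liver and 1 lower (38.8% and 44% of all genes), and stomach against duodenum had 1 higher and 57 lower (38.8% and 38.1%). By mean CPM the order liver, duodenum, stomach held for 50 members. For 27 of them each of the 3 steps was called, while 53 members were called lower in stomach than in both other tissues. Scaling matters here: the median of all genes was -0.13 for liver against duodenum and -0.08 for liver against stomach, and the member medians of 0.31 and 0.79 stand beside those. Within batch 1 the liver to duodenum comparison gave 18 members higher and 19 lower (median -0.01), and within batch 2 it gave 44 and 3 (median 0.51).

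Mrps34, a mitochondria-only protein of the small subunit, was at 59.8 ± 15.7 CPM in liver (SD, n = 16), 31.8 ± 8.80 in duodenum (SD, n = 15) and 16.1 ± 1.81 in stomach (SD, n = 16). Its log2 difference between liver and stomach was 1.87 ± 0.11 (SE, adjusted p = 1.07e-20, edgeR), and the liver and stomach ranges (41.1 to 95.1 and 12.7 to 20.1 CPM) did not overlap. Mrps28 was at 34.3 ± 15.3, 16.2 ± 3.44 and 9.53 ± 1.49 CPM in liver, duodenum and stomach (SD), with log2 differences of 1.03 ± 0.14 to duodenum and 1.82 ± 0.14 to stomach (SE, adjusted p = 8.45e-09 and 9.47e-16). Mrpl2, which in bacteria lies near the peptidyl transferase centre, was 1.52 ± 0.09 higher in liver than in stomach on the log2 scale (SE, adjusted p = 9.75e-21). Mrpl14 was 1.02 ± 0.13 higher in liver than in duodenum (SE, adjusted p = 2.69e-09).

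The other 23 members ran in another order, 14 of them with duodenum first and liver next. Mrpl12 was at 144 ± 35.2 CPM in duodenum, 65.6 ± 9.43 in stomach and 64.6 ± 31.2 in liver (SD). Its log2 difference was -1.21 ± 0.14 for liver against duodenum (SE, adjusted p = 1.04e-10) and -1.14 ± 0.14 for stomach against duodenum (SE, adjusted p = 6.03e-10). Mrpl47, the counterpart of bacterial L29, was lowest in liver, at 11.6 ± 3.46 CPM against 16.8 ± 2.87 in stomach and 25.6 ± 5.00 in duodenum (SD). It was the only member called lower in liver than in stomach (-0.51 ± 0.10, SE, adjusted p = 1.83e-05). Mrps31 was also lower in liver than in duodenum (-0.62 ± 0.08, SE, adjusted p = 5.21e-09). Mrpl39 was the only member called higher in stomach than in duodenum, at 29.04 ± 3.97 against 20.6 ± 3.53 CPM (SD) and 0.48 ± 0.09 on the log2 scale (SE, adjusted p = 7.83e-06). Mrps22 (-1.14 ± 0.08, SE, adjusted p = 2.47e-16) and Mrps9 (-1.09 ± 0.08, SE, adjusted p = 6.6e-16) had, with Mrpl12, the most negative log2 differences between stomach and duodenum among called members.

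Genes that work with this ribosome were counted in the same comparisons. In liver against stomach 18 of 20 translation factors, 16 of 20 tRNA synthetases and 18 of 19 genes of mitochondrial DNA expression were higher, beside 38.8% of all genes. Cytosolic ribosomal protein genes had 14 higher and 14 lower of 113. In liver against duodenum the 3 lists had 12, 11 and 12 higher and 3, 6 and 4 lower. The protein genes of mitochondrial DNA were higher in liver than in duodenum for 12 of 13 (median 0.56) and higher in stomach than in duodenum for 8 of 13 (median 0.27), with 1 lower.

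Among controls the members varied most in liver. The SD of log2 CPM over control libraries had a median over members of 0.44 in liver, 0.34 in duodenum and 0.21 in stomach. The scarce Mrps17 entry varied most in each tissue. Next in liver were Mrpl33 (0.71), Mrpl15 (0.69), Mrpl48 (0.67) and Mrpl13 (0.65), whereas Mrpl10 (0.19) and Mrpl4 (0.20) varied least. In duodenum Mrpl13 (0.51), Mrpl1 (0.49) and Mrpl20 (0.48) were among the most variable and Mrps15 (0.19) and Mrpl52 (0.22) the least. In stomach Mrpl33 (0.47) and Mrpl54 (0.44) stood at the top and Mrps5 (0.12) at the bottom.

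Most members moved together from library to library. Set against each member's control median, the number of members above it in a single control library was 5 to 72 of 73 for liver, 7 to 68 for stomach and 0 to 65 for duodenum. The duodenum library with 0 was male control replicate 1, whose members lay at a median of -0.67 on the log2 scale and in which 44.96% of all genes were above their control median. In liver the 3 libraries with the highest members (medians of 0.93 to 1.07) were all from batch 2, 1 in each dose group, and their cytosolic ribosomal share was 2.55% to 3.17%, against a control median of 1.37%. The member share and the cytosolic share had r = 0.940 (rho = 0.919) over 46 liver libraries and r = 0.891 (rho = 0.751) over 48 stomach libraries (adjusted permutation p = 1.75e-05 for r and 2.33e-05 for rho). Without the 2 farthest libraries r was 0.915 and 0.865. Within batches 1, 2 and 3 it was 0.786, 0.938 and 0.689 in liver and 0.715, 0.889 and 0.140 in stomach.

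At transcript level the 73 members had 154 transcripts, and 26 members had a single one. For every member the same transcript led in all 3 tissues. Mrpl36 showed the widest range of that transcript's share in controls, 69.0% ± 23.3 in liver (SD, n = 16), 59.3% ± 18.6 in duodenum (SD, n = 15) and 50.3% ± 13.7 in stomach (SD, n = 16). The gap of 18.7 points between liver and stomach exceeded the stomach SD but not the liver SD. For Mrpl47 the shares were 71.0% ± 7.65, 65.8% ± 5.68 and 54.6% ± 4.95 (SD), so that liver and stomach differed by more than 1 SD of either. These differences were not tested.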

How the data were processed

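The deposited tables hold expected counts, that is estimated counts per gene and per transcript that the authors made for each library and that need not be whole (9.47%, 11.3% and 11.9% of values were fractional in liver, stomach and duodenum). Per the submitters' processing notes, Salmon 1.10.3, STAR 2.7.11b, UMI-tools 1.1.5 and Trim Galore 0.6.10 were used with the build mRatBN7.2. What each tool did, which annotation was used and whether counting used strand is not given in the sources consulted.

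Counts were rounded and tested with edgeR 4.0.16 in R 4.3.3, by the quasi-likelihood test with TMM scaling, in each tissue, on sex-by-dose groups with batch as a term. Genes passed filterByExpr (minimum count 10, minimum total 15), leaving 13130 (liver), 15140 (stomach) and 15189 (duodenum) genes. Tissues were compared over vehicle controls, 16033 genes, with joint scaling. A call is a Benjamini-Hochberg adjusted p under 0.05 over all genes tested. The SE of a log2 change is its size divided by the square root of F. CPM are not corrected for gene length, so genes are not compared in level. Estimated counts at the depths given limit the precision of scarce genes. Columns without a sample: 0.

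Full statistics were to be given for at most the 12 called members with the smallest p in each direction (the 5 smallest where fewer than 5 were called), for Mrps18a, Mrps18b, Mrps18c, Mrps12, Mrpl12 and Mrpl58 whatever their values, and for the 8 largest tissue differences in each direction, with at most 4 genes per list and the 5 most and least variable members. Mrpl10, Mrpl4, Mrpl52, Mrps2, Mrpl13, Mrps17 and Mrpl42 in duodenum were picked after their values were seen. The members and lists were chosen with earlier results of these data known. The tests were checked on simulated counts. DESeq2 1.42.0, other scaling, filters and designs, single batches and leaving out 1 library at a time (63 fits) were tried. Replicate numbers are shared between groups, but nothing in the labels ties them to shared animals.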

Additional observations from a re-analysis of the deposited data

Results flagged for a closer look

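Of 126 groups of libraries examined for a value far from the rest (the member share of counts and 6 members followed in every group), 14 had one. Chance gives about 1 in 20 for a single group, but the measures come from the same libraries and members moved together. The groups are therefore not independent, and an excess over chance was not tested. The member share stood apart in male liver at the low dose (0.214%, next library 0.158%) and the high dose (0.321%, next 0.216%), and in male duodenum at the low dose (0.476%, next 0.392%). In liver, the highest library stood apart for Mrps18c in high-dose males (95.9 CPM, next 37.05), for Mrps12 in low-dose males (14.3 CPM, next 9.01) and high-dose females (12.4 CPM, next 8.84), for Mrpl12 in low-dose males (50.7 CPM, next 33.4) and low-dose females (66.9 CPM, next 45.5), and for Mrpl58 in low-dose males (30.9 CPM, next 26.01) and high-dose males (58.8 CPM, next 35.5). In stomach, the highest library stood apart for Mrps18b in male controls (30.2 CPM, next 24.1) and Mrps18c in female controls (52.4 CPM, next 29.5), and the lowest for Mrps18b in low-dose females (15.1 CPM, next 22.05). In duodenum it was the highest for Mrps18c in high-dose males (114 CPM, next 65.6).

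The high-dose effect on Mrps5 differed between tissues, with a log2 difference of stomach minus duodenum of -0.43 by edgeR's interaction test.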

How the results depend on the processing

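Of 24 comparisons, 15 had 0 called members in every setting tried, which says nothing of stability. The 3 tissue comparisons kept their counts of calls in either direction within 1.5 times, and the other 6 did not. The split between directions was less steady. Liver against duodenum had 39 members higher and 9 lower in the main fit, but about as many lower as higher in batch 1 alone. In high-dose duodenum (50 called) batch 1 alone and the cytosolic ribosomal share as a covariate each left 0. Leaving out 1 library gave 29 to 64, with 7.49% to 24.4% of all genes called. High-dose duodenum males (0) had 24 with DESeq2 and 24 with the enterocyte mean as a covariate. In high-dose stomach (2) there were 0 in batch 1 alone, 0 in batch 2 alone, 0 without the batch term and 0 with the ribosomal share, 4 with DESeq2, 1 with only the groups compared and 8 without batch 3. In high-dose male stomach (16) there were 0 in each batch alone, without the batch term and with the ribosomal share, 7 without the filter, 4 with only the groups compared and 29 without batch 3. There were 2 to 26 when 1 library was left out, with 1.81% to 10.7% of all genes called. High against low dose in stomach (0) had 1 with DESeq2. The liver sex difference (12) gave 0 in batch 1 alone, 6 in batch 2 alone, 4 without the batch term and 30 with the ribosomal share. It gave 4 to 21 when 1 library was left out, with 17% to 23.8% of all genes called. The cause of these shifts was not tested. Where a count of members stands without the share of all genes called in that fit, it cannot be set against genes at large.

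With the ribosomal share as a covariate 23 values of single members changed sign, all in the high-dose gut: in duodenum Mrps33 -0.00993, Mrps26 -0.00771, Mrpl46 -0.00398, Mrpl58 -0.0818, Mrps18a -0.0341, Mrpl12 -0.0978, Mrps12 -0.0772 and Mrps18b -0.0793, in stomach Mrpl14 -0.000112, Mrps18c -0.0631, Mrpl18 -0.0953 and Mrps11 -0.0356, and in male stomach Mrps18c -0.0660, Mrpl18 -0.0819, Mrpl30 -0.12, Mrpl48 -0.0742, Mrps33 -0.12, Mrpl54 -0.23, Mrpl20 -0.17, Mrps6 -0.14, Mrpl32 -0.0999, Mrpl49 -0.0636 and Mrps17 -0.0766.

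With the replicate number as a block, calls were 42 in high-dose duodenum, 11 in high-dose stomach, 27 in high-dose male stomach and 18 for the liver sex difference. Shares of all genes called in the blocked fits are not given here, so these counts cannot be set against genes at large. Same-numbered libraries correlated above 0.1 in 40 of 110 liver, 37 of 120 stomach and 40 of 115 duodenum pairs. Median correlations were -0.019, 0.009 and 0.017, against 0.016, -0.009 and -0.011 for other-numbered pairs. The best partner had the same number for 3 of 46 liver, 15 of 48 stomach and 8 of 47 duodenum libraries. Across tissues it did for 24 of 47 control libraries, with medians of 0.072 (same number) and -0.013 (others). Whether such libraries share animals was not tested, and the main tissue fits did not pair them.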
